A study of Mus musculus with 6 samples.

Results

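The genes described here encode the plasma-membrane and store channels that carry calcium, sodium and chloride, together with the sensors and pumps that serve calcium stores. They were taken by gene name from the deposited table of mouse aortic cells: the pore and auxiliary subunits of voltage-gated calcium channels (Cacna, Cacnb, Cacng), voltage-gated sodium channels (Scn), TRP channels (Trpa, Trpc, Trpm, Trpv), CLC chloride channels and exchangers (Clcn), anoctamins (Ano), mechanically gated Piezo channels, ORAI channels and STIM sensors, ryanodine and IP3 receptors (Ryr, Itpr), and the calcium pumps Atp2a and Atp2b. The name rule found 101 of 25683 genes. Of these, 49 were expressed, defined as 10 or more exon reads in at least 3 of the 6 libraries, and 52 were not.

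The cells were Nt5e knock-out cells (libraries 1, 2 and 3), set against wild-type cells for Nt5e (libraries 4, 5 and 6). Nt5e encodes CD73, an ecto-enzyme that makes adenosine from AMP. All 6 libraries came from cells that the labels call vascular smooth muscle of the aorta, grown as a primary line. Every culture was moved out of growth medium with 10% serum and kept at 0.5% serum for 48 h to induce differentiation. The labels name neither the kind of knock-out allele nor the number of animals, and do not say which libraries are separate cultures, so the p-values below may reflect technical spread alone.

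Exon reads per library lay between 19919095 and 23669252. Nt5e itself had 22, 1 and 2 reads in knock-out libraries 1, 2 and 3, against 615, 688 and 486 reads in wild-type libraries 4, 5 and 6. Knock-out libraries 2 and 3 were nearly identical, with a biological coefficient of variation of 3.66%, and so were wild-type libraries 4 and 6, at 3.49%. Knock-out library 1 stood apart: it differed by 44.6% from library 2 and 45.1% from library 3, and by 43.7% to 48.0% from the wild-type libraries. Library titles end in 1 for knock-out library 1 and wild-type library 5, and in 2 for the other 4. Those 4 are the nearly identical pairs. Titles also carry a stem and a number after the letter p. Knock-out libraries 1 and 2 share a stem, whereas the libraries within each nearly identical pair have different stems. The number after p separates knock-out library 1 from libraries 2 and 3, and it also differs between wild-type libraries 4 and 6. The labels do not say what any of these mean. The smooth muscle label was only partly borne out by markers, of which 5 of 8 passed the test's count filter: Cnn1 was lower and Smtn higher in knock-out cells (edgeR adjusted p = 0.0246 and 0.0296), Acta2, Tagln and Lmod1 were not called, Myh11 had 5, 54 and 67 reads in knock-out and at most 3 in wild-type libraries, and Des and Myocd never passed 4 reads. Markers of mesothelium, the lining of body cavities, were summed in CPM, exon reads scaled by library size. The sums were 62.2 to 153 CPM in knock-out and 2369 to 2478 CPM in wild-type libraries. Of the 7 markers 6 were tested, and all 6 were lower. Krt8 and Krt18 were at 0 in the knock-out but also low in wild-type libraries 4, 5 and 6. Krt8 had 15, 17 and 11 reads there, and Krt18 had 6, 6 and 9. Summed fibroblast markers (6 of 6 tested) ranged over 4029 to 5917 CPM in knock-out and 3613 to 3730 CPM in wild-type libraries, and smooth muscle markers over 177 to 698 CPM in knock-out and 136 to 206 CPM in wild-type libraries. Of the fibroblast markers Pdgfra and Pi16 were higher in knock-out cells. Skeletal and cardiac muscle markers summed to 8.57 to 28.5 CPM in knock-out and 0.758 to 1.07 CPM in wild-type libraries, with 2 of 6 tested and Tnnt2 higher (log2 fold change 6.36, edgeR adjusted p = 0.00453). Endothelial markers summed to 2.34 to 6.65 CPM in knock-out and 0.649 to 1.73 CPM in wild-type libraries, with 1 of 5 tested, Kdr, higher (3.17, 0.0138). Leukocyte markers summed to 6.10 to 15.1 CPM in knock-out and 4.11 to 6.20 CPM in wild-type libraries, with 2 of 4 tested, Lyz2 higher (2.57, 0.0156) and Cd68 lower (-2.33, 0.00704). Neuron and Schwann cell markers summed to 2.17 to 3.94 CPM in knock-out and 2.18 to 2.83 CPM in wild-type libraries, with 2 of 6 tested and neither called. In these 4 lists Tie1, Snap25, Sox10, Ckm, Myog, Myh2, Myh6 and Ptprc were at 0 throughout. The part of these markers in the channel results was not tested.

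Smooth muscle uses calcium in several ways. It enters through voltage-gated channels, through TRP channels and through store-operated channels, in which STIM proteins of the endoplasmic reticulum sense an emptied store and open ORAI pores in the plasma membrane. IP3 receptors and ryanodine receptors release calcium from the store, SERCA pumps (Atp2a) refill it, and plasma-membrane calcium pumps (PMCA, Atp2b) expel it from the cell. Chloride efflux through the anoctamin Ano1 depolarises the membrane, while most CLC proteins of endosomes and lysosomes exchange chloride for protons.

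Promoter sequences are shown for both STIM genes, which were higher together in knock-out cells, for their partner Orai1, and for a pair of pump genes that differed in opposite directions. Each is the 250 bases before a RefSeq transcription start on the plus strand of GRCm38.p6: chr7:102267569-102267818 for Stim1, chr5:53998273-53998522 for Stim2, chr5:123014824-123015073 for Orai1, chr10:98914392-98914641 for Atp2b1 (1 of its 2 starts) and chr11:72960919-72961168 for Atp2a3. Capitals mark the core of the cAMP response element, TGACG, and the GC box, GGGCGG, read on both strands; the 2 motifs do not overlap in these windows, while neighbouring GC boxes can share bases.
Stim1: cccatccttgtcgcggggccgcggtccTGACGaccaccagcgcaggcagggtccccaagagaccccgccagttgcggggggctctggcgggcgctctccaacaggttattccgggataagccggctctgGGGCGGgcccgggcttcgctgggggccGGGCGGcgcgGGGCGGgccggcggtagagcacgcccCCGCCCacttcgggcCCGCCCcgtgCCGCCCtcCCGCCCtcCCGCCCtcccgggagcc
Stim2: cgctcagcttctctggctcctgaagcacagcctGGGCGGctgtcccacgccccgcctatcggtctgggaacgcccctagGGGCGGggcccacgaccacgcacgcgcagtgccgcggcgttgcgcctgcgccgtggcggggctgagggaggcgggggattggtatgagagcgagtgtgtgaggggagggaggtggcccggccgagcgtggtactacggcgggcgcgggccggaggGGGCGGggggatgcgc
Orai1: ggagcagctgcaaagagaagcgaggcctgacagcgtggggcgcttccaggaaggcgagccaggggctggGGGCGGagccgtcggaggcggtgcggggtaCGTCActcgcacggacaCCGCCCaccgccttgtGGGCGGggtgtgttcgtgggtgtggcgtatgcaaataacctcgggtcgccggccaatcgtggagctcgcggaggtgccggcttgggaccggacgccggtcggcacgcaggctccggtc
Atp2b1: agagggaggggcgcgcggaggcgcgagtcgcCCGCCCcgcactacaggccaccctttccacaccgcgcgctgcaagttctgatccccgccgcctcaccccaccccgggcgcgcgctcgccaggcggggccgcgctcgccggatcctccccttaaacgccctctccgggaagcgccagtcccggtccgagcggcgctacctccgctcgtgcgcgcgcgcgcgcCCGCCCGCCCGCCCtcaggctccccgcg
Atp2a3: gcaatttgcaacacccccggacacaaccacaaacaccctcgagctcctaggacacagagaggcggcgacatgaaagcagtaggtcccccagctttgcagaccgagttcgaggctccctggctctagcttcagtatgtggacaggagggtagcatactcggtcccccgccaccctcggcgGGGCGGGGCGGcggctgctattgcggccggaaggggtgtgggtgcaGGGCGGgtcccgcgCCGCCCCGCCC
The core TGACG occurred 1 time in the Stim1 promoter, 1 time in that of Orai1, and not in the other 3 windows. GC boxes numbered 8 in Stim1, 3 in Stim2, 3 in Orai1, 4 in Atp2b1 and 5 in Atp2a3. Over 32851 RefSeq promoters of this length, 17.8% held TGACG and 32.7% held GGGCGG. RefSeq promoters were found for 79 of the 101 genes, and among the 54 promoters of 37 expressed genes 14 held TGACG and 31 held GGGCGG. For the 13 called genes with a promoter, 4 of 21 promoters held TGACG and 10 held GGGCGG. The full element TGACGTCA was in 1.55% of all promoters, in 1 of the 54 and in none of the 21. The CArG box, the site of serum response factor in smooth muscle genes, was in 1.47% of all, in 1 of the 54 and in none of the 21. A match here is only a run of letters in this window.

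The expressed genes covered a wide range of levels. By RPKM, the authors' reads scaled by depth and exon length, averaged over the 6 libraries, Atp2a2 (SERCA of the endoplasmic reticulum) stood highest at 69.7. The phospholipid scramblase and channel Ano6 followed at 51.4, the calcium channel beta subunit Cacnb3 at 35.2, the pressure-gated channel Piezo1 at 34.0 and the channel-kinase Trpm7 at 31.0 RPKM. Cacnb3, Piezo1 and Trpm7 are neighbours whose library ranges overlap (33.2 to 37.1, 28.8 to 41.5 and 29.4 to 32.9 RPKM), so their order is not fixed. At least 10 RPKM was reached by 13 genes and at least 1 RPKM by 33. Together, the 101 genes took 0.274%, 0.295% and 0.293% of exon reads in knock-out libraries 1, 2 and 3, against 0.267%, 0.291% and 0.272% in wild-type libraries 4, 5 and 6.

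**Figure D1:**
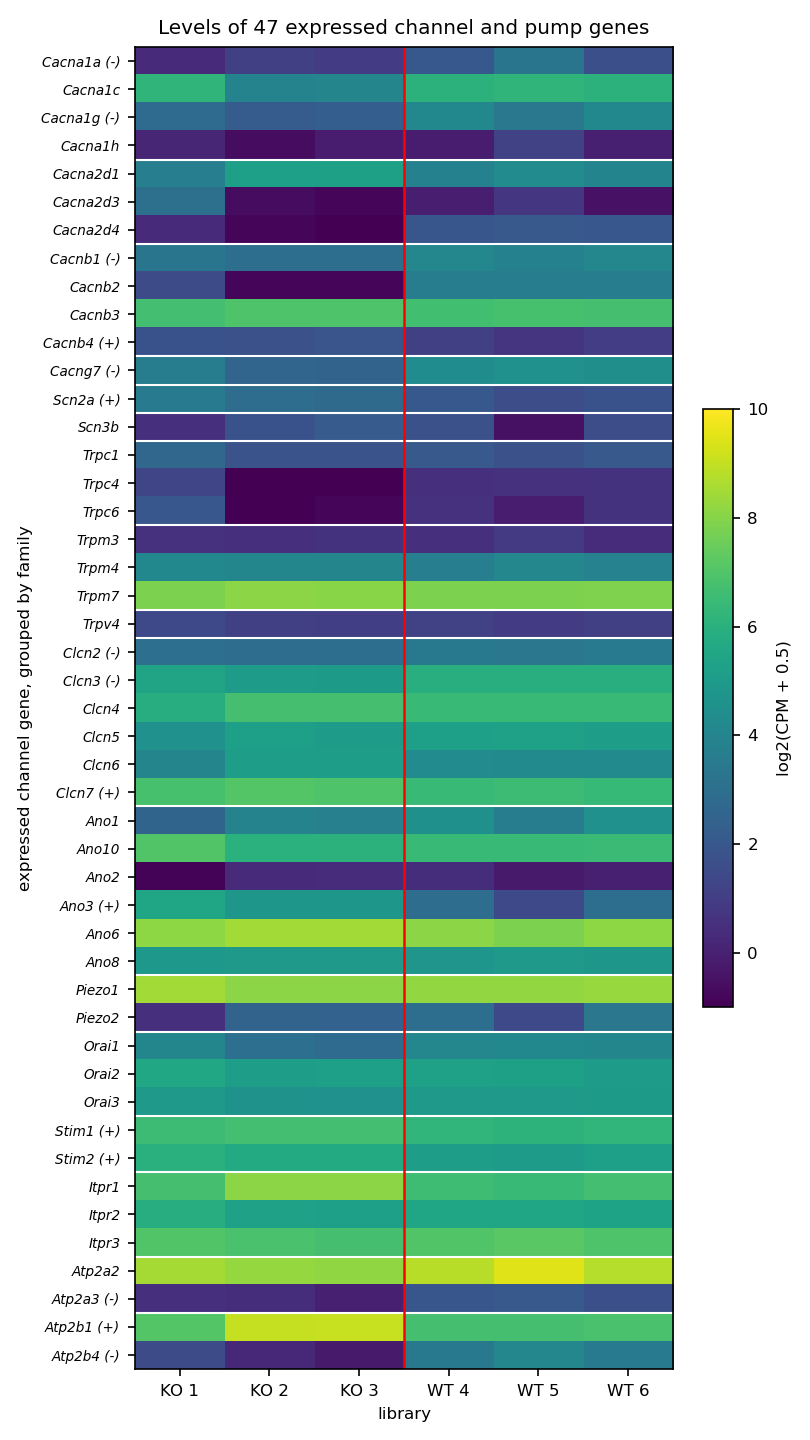
Level of 47 of the 49 expressed genes in each library, as log2(CPM + 0.5), with knock-out libraries left of the red line and wild-type libraries right of it; white lines part gene families, and (+) and (-) mark genes higher or lower in knock-out cells by edgeR. Knock-out library 1 can be told from libraries 2 and 3 in several rows, such as Cacna1c and Atp2b1.

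All 49 expressed genes, and none of the other 52, entered the test over 12660 genes. Levels differed between knock-out and wild-type cells for 16 of the 49 (32.7%), against 27.8% of all genes tested (quasi-likelihood test of edgeR, with Benjamini-Hochberg adjustment at 0.05). Higher in knock-out were 7 genes (14.1% of all genes tested were higher): Stim2, Stim1, Clcn7, Scn2a, Ano3, Cacnb4 and Atp2b1. Lower in knock-out were 9 (13.7% of all genes tested were lower), among them Cacnb1, Atp2a3, Clcn3, Cacna1g, Atp2b4, Cacng7, Clcn2 and Cacna1a. These shares lie near those of all genes. Of the 49, 10 were called and differed at least 2-fold, against 11.3% of all genes tested, 4 higher (4.46% of all) and 6 lower (6.81% of all). The median log2 fold change of the 49 was -0.00, against 0.02 over all genes, and the median size of the change was 0.67, against 0.34. Of the 49, 7 had 10 reads in all wild-type but not all knock-out libraries, against 6.11% of all genes tested, and 1, Scn3b, the other way round, against 1.52%. In bulk RNA, fewer cells of a type and less RNA per cell cannot be told apart, which applies to each result below.

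Some of these calls depended on single libraries. Calls of Stim2, Cacnb1 and Clcn3 were kept in each of the 6 fits that left out a library (edgeR adjusted p up to 0.0443, 0.0484 and 0.0497). Atp2a3 lost its call without wild-type library 4 (0.0514), Scn2a without 5 (0.0552) or 6 (0.0630), and Ano3 without 4 (0.0565) or 6 (0.0502). Clcn7 and Cacna1g lost theirs when library 2, 3, 4 or 6 was dropped (up to 0.0652 and 0.0718). Atp2b4 did so when knock-out library 2 or any of the wild type was dropped (up to 0.0679). Stim1, Cacnb4, Cacng7, Clcn2, Cacna1a and Atp2b1 lost theirs without any library except knock-out library 1 (up to 0.0687, 0.0908, 0.0787, 0.121, 0.118 and 0.145). The count of calls was 7 and 8 without knock-out library 2 and 3, and 5, 8 and 5 without wild-type library 4, 5 and 6. Without knock-out library 1 the count was 40 of 52 tested, against 66.2% of all genes tested there, with 16 higher (32.6% of all) and 24 lower (33.7% of all). Each nearly identical pair was also summed into 1 sample, which leaves 2 samples per genotype. Then 0 of 54 passed in edgeR (lowest adjusted p = 0.106), against 0.13% of all genes (0.023% higher and 0.107% lower).

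**Figure D2:**
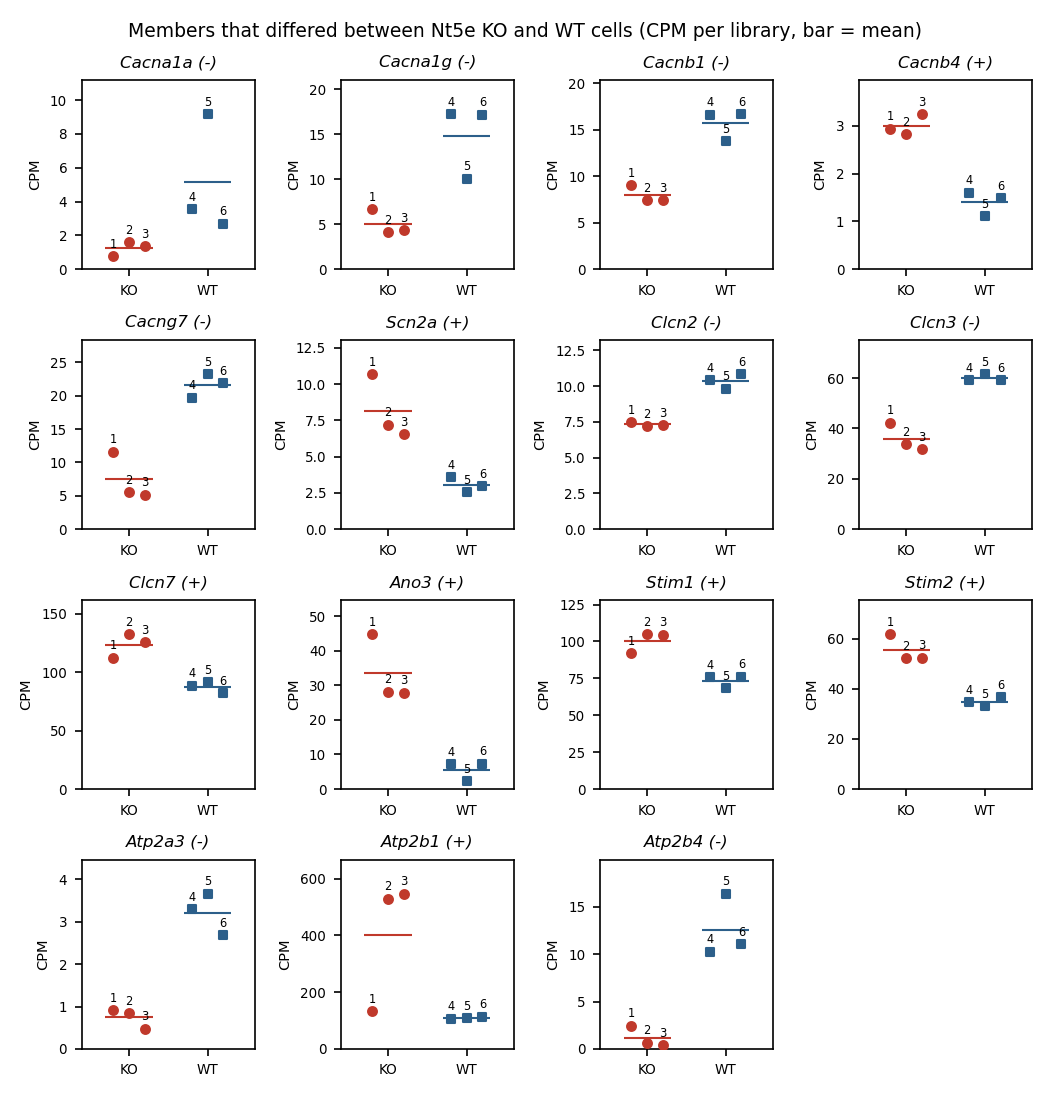
Level in CPM (vertical axis, from 0) of 15 of the 16 genes that differed between genotypes, with knock-out libraries 1 to 3 as circles on the left and wild-type libraries 4 to 6 as squares on the right; horizontal bars are means. In all 15, drawn because they were called, the genotypes do not overlap, which also held for 49.7% of all genes tested. In Atp2b1 knock-out library 1, at 132 CPM, sits near the wild-type libraries.

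Store-operated calcium entry comes first. Stim2, the sensor that responds to small losses of store calcium (chromosome 5, 53998499 to 54121057, plus strand, GRCm38), had 62.0, 52.2 and 52.5 CPM in the knock-out (libraries 1, 2 and 3), against 34.8, 33.1 and 36.8 CPM in wild-type libraries 4, 5 and 6. Every knock-out library was above every wild-type library, and Stim2 had the smallest p of the 49 genes, at a log2 fold change of 0.67 ± 0.10 (SE; edgeR adjusted p = 0.00663). Stim1, the main sensor (chromosome 7, 102267806 to 102437319, plus strand), had 91.9, 105 and 105 CPM in knock-out libraries, against 75.9, 68.4 and 76.2 CPM in wild-type libraries. Its groups did not overlap either, and its log2 fold change was 0.45 ± 0.09 (edgeR adjusted p = 0.0161). Per length, the summed level of both sensors was 30.1 ± 0.94 RPKM in knock-out and 22.2 ± 1.39 RPKM in wild-type cells (SD, n = 3 each). Stim1 made up 61.8%, 68.8% and 68.5% of that sum in knock-out libraries and 70.4%, 69.3% and 69.3% in wild-type libraries. The share in knock-out library 1 was the lowest of the 6.

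The ORAI pores did not pass the test. Orai3, an ORAI channel found in mammals and the highest of the family by RPKM, had 30.6, 24.1 and 22.8 CPM in knock-out libraries, against 30.7, 29.3 and 31.8 CPM in wild-type libraries (log2 fold change -0.24 ± 0.13, edgeR adjusted p = 0.205). Orai1, the pore of the classical store-operated current, had 16.3, 7.59 and 6.60 CPM in knock-out libraries, against 16.4, 17.3 and 16 CPM in wild-type libraries. Knock-out library 1 was thus within the wild-type range and libraries 2 and 3 were well under it (log2 fold change -0.70 ± 0.35, edgeR adjusted p = 0.185). Without library 1 the value was -1.23 (edgeR adjusted p = 0.00012), in a fit that called 66.2% of all genes. Orai2, a modulator of these pores, was at 47.0, 35.3 and 36.9 CPM in knock-out and 39.3, 37.6 and 32.6 CPM in wild-type libraries, which overlap. Summed over the 3 pores, the level per length was 24.8 ± 7.01 RPKM in knock-out and 30.6 ± 0.63 RPKM in wild-type cells (SD, n = 3 each).

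Store release was represented by IP3 receptors alone. Itpr1 (chromosome 6, 108213096 to 108551109, plus strand), the form with the highest mean RPKM here, had 108, 275 and 275 CPM in knock-out libraries, against 95.0, 86.8 and 105 CPM in wild-type libraries. All knock-out values lay above all wild-type values, with library 1 just above the highest of them, and the difference missed the threshold (log2 fold change 1.2 ± 0.36, edgeR adjusted p = 0.0559). The DESeq2 test placed it below the threshold (adjusted p = 0.00429), as did the last title number as a covariate in edgeR (0.0295). So did the fit without knock-out library 1 (log2 fold change 1.52), which called 66.2% of all genes. The title covariate sets knock-out library 1 and wild-type library 5 apart from the other libraries. Much of the remaining spread then lies within the nearly identical pairs, which may each count as 1 sample. Adjusted p-values of that covariate fit in edgeR, here and for the genes below, may thus be too small. Itpr1 did not pass without any other library (edgeR adjusted p up to 0.166) or with nearly identical pairs summed (0.337). Itpr3 had 127, 113 and 106 CPM in knock-out and 129, 145 and 124 CPM in wild-type libraries, and Itpr2 had 57.7, 39.0 and 37.0 CPM in knock-out and 44.4, 43.4 and 41.3 CPM in wild-type libraries. Neither passed the test (edgeR adjusted p = 0.184 and 0.846). Of the summed IP3 receptor RPKM, Itpr1 held 36.4%, 63.6% and 65.1% in knock-out libraries and 34.6%, 30.7% and 38.0% in wild-type libraries. Its share was thus the largest of the 3 receptors in knock-out libraries 2 and 3, while Itpr3 had the largest share in knock-out library 1 and in all wild-type libraries. The ryanodine receptors Ryr1, Ryr2 and Ryr3 were not expressed by the rule, and Ryr1, the skeletal muscle form, had the most reads, at 1, 13 and 11 in knock-out and 2, 0 and 0 in wild-type libraries.

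**Figure D3:**
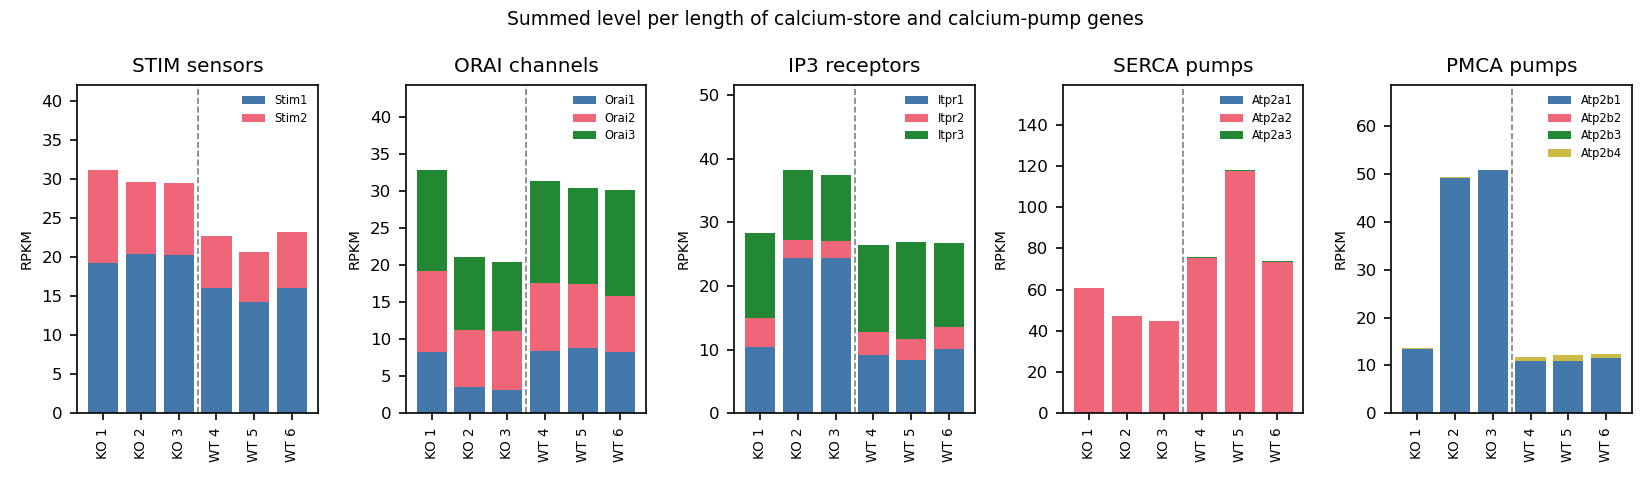
Stacked level per length in RPKM (vertical axis, from 0) of STIM, ORAI, IP3 receptor, SERCA and PMCA genes in knock-out libraries 1 to 3, left of the dashed line, and wild-type libraries 4 to 6, right of it; colours are family members. STIM sums lie above the wild type in all 3 knock-out libraries, whereas the IP3 receptor and PMCA sums of knock-out library 1, at 28.4 and 13.6 RPKM, lie closer to the wild type than to knock-out libraries 2 and 3.

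The pumps moved in different directions. Atp2b1, the widely expressed PMCA pump (chromosome 10, 98914406 to 99026143, plus strand), had 132, 530 and 547 CPM in knock-out libraries, against 107, 109 and 113 CPM in wild-type libraries. The groups did not overlap, but knock-out library 1 was close to the wild type while libraries 2 and 3 were several-fold higher (log2 fold change 1.88 ± 0.52, edgeR adjusted p = 0.0440; 2.29 without library 1). The call of Atp2b1 was also lost with limma-voom (adjusted p = 0.0662). Atp2b4, another PMCA pump of smooth muscle (chromosome 1, 133699457 to 133801041, minus strand), had 2.47, 0.66 and 0.37 CPM in knock-out libraries, against 10.3, 16.4 and 11.1 CPM in wild-type libraries. It was lower in every knock-out library, least so in library 1 (log2 fold change -3.40 ± 0.70, edgeR adjusted p = 0.0186; -4.58 without library 1). Of summed PMCA RPKM it gave 1.45%, 0.0985% and 0.0538% in knock-out and 7.06%, 10.6% and 7.16% in wild-type libraries.

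Among SERCA pumps, Atp2a3 (chromosome 11, 72961169 to 72993044, plus strand), a form best known from blood cells and endothelium, had 0.91, 0.85 and 0.48 CPM in knock-out libraries, against 3.30, 3.66 and 2.69 CPM in wild-type libraries. It was lower in all 3 knock-out libraries (log2 fold change -2.09 ± 0.33, edgeR adjusted p = 0.0088). These levels rest on 21, 18 and 9 reads in knock-out and 74, 89 and 58 reads in wild-type libraries. Atp2a2, which supplied over 99% of SERCA RPKM in every library, had 364, 306 and 290 CPM in knock-out libraries, against 450, 710 and 437 CPM in wild-type libraries. All its knock-out values were under all its wild-type values, wild-type library 5 was high, and the difference was just outside the threshold (log2 fold change -0.73 ± 0.22, edgeR adjusted p = 0.0530). Scaled by total counts it was inside (adjusted p = 0.0451), as with DESeq2 (0.00578) and with the last title number as a covariate in edgeR (0.00868). With nearly identical pairs summed it was outside (edgeR adjusted p = 0.253). The summed SERCA level was 50.9 ± 8.70 RPKM in knock-out and 89.3 ± 25.0 RPKM in wild-type cells, and the summed PMCA level 37.9 ± 21.1 RPKM in knock-out and 12.1 ± 0.40 RPKM in wild-type cells (SD, n = 3 each).

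Voltage-gated calcium channels consist of a pore, with alpha-2-delta and beta subunits that bring it to the membrane and tune its gating. Of 10 pore genes 4 were expressed. Cacna1c, the L-type pore that carries most voltage-gated calcium entry of smooth muscle, was the highest of them by RPKM, with 73.3, 14.5 and 15.6 CPM in knock-out libraries, against 67.2, 73.8 and 67.2 CPM in wild-type libraries. Knock-out library 1 lay inside the wild-type range and libraries 2 and 3 far under it, and Cacna1c did not pass the test (log2 fold change -1.01 ± 0.65, edgeR adjusted p = 0.286; -2.22 without library 1). Cacna1g, a T-type pore that opens at low voltage (chromosome 11, 94408391 to 94474198, minus strand), had 6.71, 4.10 and 4.36 CPM in knock-out libraries, against 17.3, 10.1 and 17.2 CPM in wild-type libraries. Its groups did not overlap, and it was lower in knock-out cells (log2 fold change -1.55 ± 0.30, edgeR adjusted p = 0.0161). Cacna1a, the P/Q-type pore of nerve terminals (chromosome 8, 84338639 to 84640246, plus strand), had 0.78, 1.6 and 1.38 CPM in knock-out libraries, against 3.57, 9.17 and 2.69 CPM in wild-type libraries. It was lower in knock-out cells, wild-type library 5 was high (log2 fold change -2.03 ± 0.57, edgeR adjusted p = 0.0450), and the call was lost with limma-voom (adjusted p = 0.0879) and with the last number of the library title as a covariate (0.0635). Cacna1h, the other T-type pore expressed, had 0.65, 0.14 and 0.43 CPM in knock-out and 0.40, 1.77 and 0.46 CPM in wild-type libraries and did not pass (edgeR adjusted p = 0.340).

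All 4 beta subunits were expressed. Cacnb3 was by far the highest per length and did not pass the test, with 105, 124 and 125 CPM in knock-out libraries, against 103, 111 and 107 CPM in wild-type libraries. Cacnb1 (chromosome 11, 98001508 to 98023034, minus strand) had 9.05, 7.45 and 7.45 CPM in knock-out libraries, against 16.6, 13.8 and 16.7 CPM in wild-type libraries. It was lower in all 3 knock-out libraries, library 1 included (log2 fold change -0.97 ± 0.15, edgeR adjusted p = 0.00751). Cacnb4 (chromosome 2, 52428320 to 52676831, minus strand) went the other way, with 2.94, 2.83 and 3.25 CPM in knock-out libraries, against 1.61, 1.11 and 1.48 CPM in wild-type libraries (log2 fold change 1.10 ± 0.25, edgeR adjusted p = 0.0246). Only 8 of 189 Cacnb4 exon reads in knock-out and 2 of 95 in wild-type libraries crossed an exon junction. For Cacnb1 in knock-out libraries 278 of 507 did. Exons of Cacnb4 overlap A430018G15Rik on the opposite strand, so some of its reads may be shared. Cacnb2, the beta subunit of heart L-type channels, had 55, 1 and 1 reads in knock-out libraries, against 262, 293 and 266 reads in wild-type libraries. It was low in every knock-out library but missed the threshold in edgeR (adjusted p = 0.0657), and passed with DESeq2 (0.00723), limma-voom (0.0131) and the last title number as a covariate in edgeR (0.0292), though not with nearly identical pairs summed (0.330).

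Of the alpha-2-delta genes, Cacna2d1, the highest per length, had 12.6, 36.4 and 37.8 CPM in knock-out libraries, against 13.6, 19.1 and 15.2 CPM in wild-type libraries. Knock-out library 1 lay under the wild type and libraries 2 and 3 over it (log2 fold change 0.85 ± 0.42, edgeR adjusted p = 0.179). Cacna2d3 showed the opposite split, with 182, 3 and 1 reads in knock-out and 10, 28 and 5 reads in wild-type libraries (edgeR adjusted p = 0.375). As a share of summed alpha-2-delta RPKM, Cacna2d3 gave 52.5%, 0.746% and 0.272% in knock-out and 4.49%, 8.35% and 2.16% in wild-type libraries. Cacna2d4 had 17, 1 and 0 reads in knock-out and 74, 90 and 76 reads in wild-type libraries (edgeR adjusted p = 0.0540). It passed with DESeq2 (adjusted p = 0.00785), limma-voom (0.0144) and the last title number as a covariate in edgeR (0.0284), though not with nearly identical pairs summed (0.300). Cacng7, whose protein also serves as a regulator of glutamate receptors in brain (chromosome 7, 3332955 to 3368221, plus strand), was the only gamma subunit of 8 that was expressed. It had 11.6, 5.56 and 5.16 CPM in knock-out libraries, against 19.7, 23.3 and 21.9 CPM in wild-type libraries, and was lower in knock-out cells, least so in library 1 (log2 fold change -1.53 ± 0.34, edgeR adjusted p = 0.0226).

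Among TRP channels, 8 of 22 genes were expressed. Trpc1, Trpc4 and Trpc6, cation channels of the plasma membrane, did not pass the test. Trpc6, opened by diacylglycerol, had 79, 0 and 1 reads in knock-out libraries, against 22, 10 and 22 reads in wild-type libraries. Trpc4 had 45, 0 and 0 reads in knock-out libraries, against 21, 24 and 22 reads in wild-type libraries. For both genes, knock-out library 1 was the highest of the 6 libraries and libraries 2 and 3 the lowest (edgeR adjusted p = 0.812 and 0.796). Trpc1 was at 5.67, 2.97 and 2.98 CPM in knock-out and 3.75, 2.80 and 3.71 CPM in wild-type libraries, which overlap (edgeR adjusted p = 0.702).

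Trpm7, a magnesium and calcium channel fused to a kinase, had 225, 270 and 266 CPM in knock-out libraries, against 228, 224 and 236 CPM in wild-type libraries (log2 fold change 0.14 ± 0.09, edgeR adjusted p = 0.292). Trpm4, a sodium-passing channel opened by calcium, and Trpm3 had overlapping groups (edgeR adjusted p = 0.446 and 0.843), as did Trpv4, the only TRPV gene expressed, at 2.16, 1.6 and 1.54 CPM in knock-out and 1.78, 1.44 and 1.62 CPM in wild-type libraries. Piezo1 had 359, 273 and 270 CPM in knock-out libraries, against 295, 296 and 312 CPM in wild-type libraries. Knock-out library 1 was the highest and libraries 2 and 3 the lowest, and the log2 fold change was -0.00 ± 0.13 (edgeR adjusted p = 0.995). Piezo2 ranged over 0.95 to 5.14 CPM in knock-out and 2.22 to 9.91 CPM in wild-type libraries (edgeR adjusted p = 0.450; 0.0254 with the last title number as a covariate). Exons of Piezo1 overlap those of Ctu2 on the opposite strand, and 92.8% of its exon reads were unique, the lowest share of the 49 genes.

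Sodium channels were sparse, with 1 of 10 pores and 2 of 4 beta subunits expressed. The pore Scn2a, known from brain (chromosome 2, 65620771 to 65767447, plus strand), had 10.7, 7.21 and 6.54 CPM in knock-out libraries, against 3.57, 2.55 and 2.96 CPM in wild-type libraries. It was higher in all 3 knock-out libraries (log2 fold change 1.43 ± 0.26, edgeR adjusted p = 0.0133). The beta subunit Scn3b had 22, 62 and 75 reads in knock-out and 64, 5 and 55 reads in wild-type libraries, which overlap.

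The CLC family had 6 of 9 members expressed, and 3 differed. Clcn7, the chloride-proton exchanger of lysosomes and the highest of the family by RPKM (chromosome 17, 25133391 to 25162104, plus strand), had 112, 133 and 125 CPM in knock-out libraries, against 88.3, 91.3 and 82.0 CPM in wild-type libraries. It was higher in knock-out cells (log2 fold change 0.50 ± 0.09, edgeR adjusted p = 0.0127). Clcn3, an endosomal exchanger (chromosome 8, 60910389 to 60983300, minus strand), had 42.3, 33.7 and 31.7 CPM in knock-out libraries, against 59.3, 61.6 and 59.2 CPM in wild-type libraries. It was lower in all 3 knock-out libraries (log2 fold change -0.74 ± 0.12, edgeR adjusted p = 0.00957). Clcn2, a channel of the plasma membrane (chromosome 16, 20702964 to 20717746, minus strand), had 7.49, 7.21 and 7.29 CPM in knock-out libraries, against 10.4, 9.83 and 10.8 CPM in wild-type libraries (log2 fold change -0.50 ± 0.12, edgeR adjusted p = 0.0284). Exons of Clcn2 overlap Polr2h on the opposite strand, which had 311, 331 and 301 reads in knock-out and 467, 543 and 408 reads in wild-type libraries, so some of its reads may be shared. Within the summed CLC RPKM, Clcn7 held 51.8%, 45.2% and 44.4% in knock-out libraries and 37.1%, 37.1% and 35.0% in wild-type libraries, and Clcn3 held 13.2%, 7.80% and 7.61% in knock-out and 16.9%, 17% and 17.1% in wild-type libraries. Clcn6, of late endosomes, had 15.4, 35.3 and 34.5 CPM in knock-out and 19.5, 18.7 and 18.9 CPM in wild-type libraries, with knock-out library 1 on the other side of the wild type from libraries 2 and 3 (edgeR adjusted p = 0.216).

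Anoctamins had 6 of 10 members expressed. Ano3, a member linked to dystonia in humans (chromosome 2, 110655201 to 110950923, minus strand), had 44.8, 28.2 and 27.8 CPM in knock-out libraries, against 7.22, 2.22 and 7.37 CPM in wild-type libraries. It was higher in all 3 knock-out libraries, with the largest rise among the 16 called genes (log2 fold change 2.59 ± 0.49, edgeR adjusted p = 0.0147). Ano6 had 279, 353 and 355 CPM in knock-out libraries, against 270, 226 and 284 CPM in wild-type libraries (log2 fold change 0.34 ± 0.14, edgeR adjusted p = 0.115; 0.0148 with the last title number as a covariate). Ano1, the calcium-activated chloride channel of smooth muscle, had 5.32, 14.7 and 13.1 CPM in knock-out libraries, against 22.3, 12.3 and 22.9 CPM in wild-type libraries. Its groups overlapped through wild-type library 5 (log2 fold change -0.79 ± 0.43, edgeR adjusted p = 0.214). With the last title number as a covariate the edgeR adjusted p was 0.0120, under the limit given for Itpr1. Ano10 had 127, 64.4 and 65.8 CPM in knock-out and 85.0, 86.2 and 89.9 CPM in wild-type libraries. Its knock-out library 1 and libraries 2 and 3 lay on opposite sides of the wild type.

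**Figure D4:**
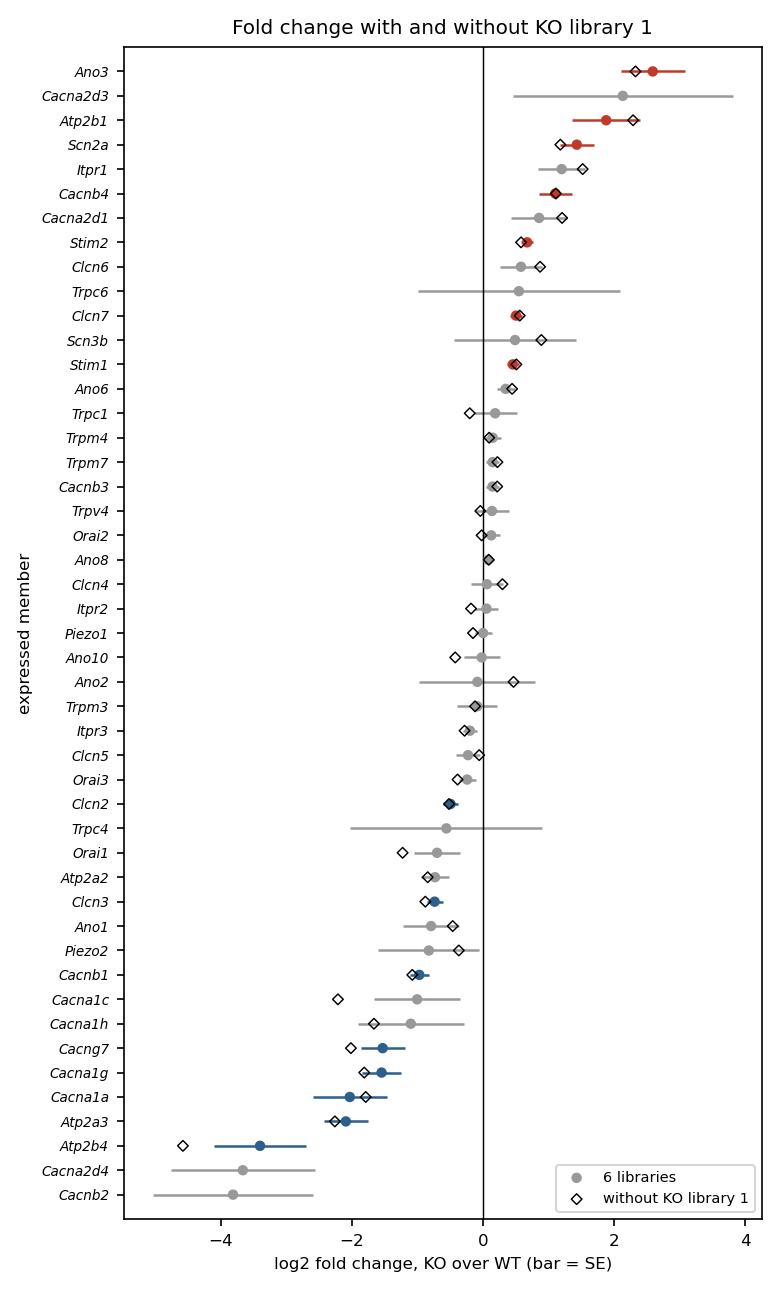
Log2 fold change of knock-out over wild type (horizontal axis) for 47 expressed genes, with filled circles and SE bars from all 6 libraries (red higher, blue lower, grey not called) and diamonds from the fit without knock-out library 1. A diamond is missing where knock-out libraries 2 and 3 held 3 reads or fewer together or the gene was not tested; diamonds of Cacna1c (-2.22) and Orai1 (-1.23) lie far below their circles, while those of Stim1 and Stim2 stay close.

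The split within the knock-out recurred across families. For 17 of the 49 genes (34.7%), knock-out library 1 was at least 2-fold from both library 2 and library 3 on CPM + 0.5, 9 higher and 8 lower, against 12.8% of all genes tested. All 3 knock-out values lay outside the wild-type range on the same side for 21 genes (42.9%), against 49.7% of all genes tested. Of these, 9 lay above (24.3% of all genes tested) and 12 below (25.5%). For 8 genes (11.8% of all genes tested) library 1 was inside the wild-type range and libraries 2 and 3 were outside it: Cacna1c, Cacnb3, Scn3b, Trpm7, Ano6, Orai1, Orai3 and Itpr3. For 9 genes (18.8% of all) library 1 and libraries 2 and 3 were on opposite sides: Cacna2d1, Cacna2d3, Trpc4, Trpc6, Clcn4, Clcn6, Ano10, Piezo1 and Itpr2. For 7 genes (5.23% of all) only library 1 was outside: Trpc1, Trpm4, Trpv4, Ano1, Ano2, Piezo2 and Orai2. Because libraries 2 and 3 are nearly identical, each such split sets library 1 against what may count as 1 sample.

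**Figure D5:**
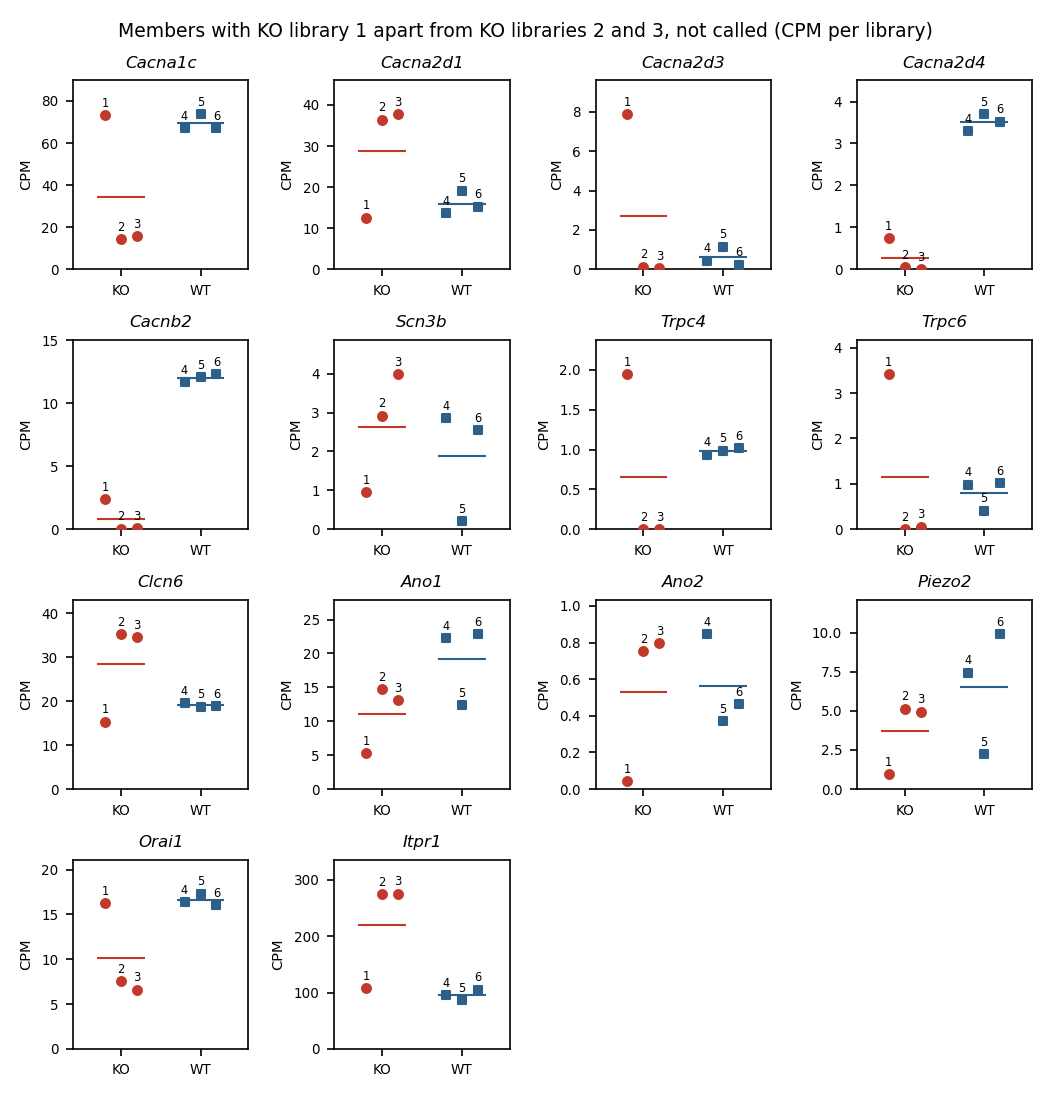
Level in CPM (vertical axis, from 0) of the 14 genes not called by edgeR in which knock-out library 1 was at least 2-fold from libraries 2 and 3, with knock-out libraries as circles on the left, wild-type libraries as squares on the right, and means as bars. In Cacna1c and Orai1 library 1 sits among the wild-type squares, whereas in Trpc4 and Cacna2d3 it is above them and libraries 2 and 3 are near 0.

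Of the 52 genes below the expression rule, 16 had no read in any library, which with a floor of 3 reads over a group covers counting error only. Among them were Cacna1e, Cacna1f, Cacng1, Cacng2, Cacng3, Cacng5, Cacng6, Scn1a, Scn9a, Trpa1, Trpc2, Trpc5, Trpv1, Trpv5 and Atp2b2. Trpc2 shares exons on the same strand with Xntrpc (13 to 27 reads per library) and Xndc1 (156 to 214 reads), so its 0 may depend on how reads were assigned. Another 24 stayed at 1 to 9 reads in their highest library, among them the heart form Ryr2 and the skeletal muscle forms Cacna1s, Scn4a, Clcn1 and Atp2a1. The other 12 reached 10 reads in at least 1 library. Of these, Ano5 had 160, 0 and 1 reads in knock-out and 0, 0 and 0 in wild-type libraries, and Ano4 had 142, 2 and 1 in knock-out and 0, 0 and 1 in wild-type libraries, so both were nearly confined to knock-out library 1 among these 6. Ano7 had 2, 0 and 0 reads in knock-out and 19, 16 and 8 in wild-type libraries. None of the 12 was tested over the 6 libraries. Without knock-out library 1, 4 of them passed the count filter: Ano7, Cacna1d and Cacng8 through their wild-type reads and Ryr1 through its knock-out reads. The first 3 were then called lower and Ryr1 higher, in an edgeR fit that called 66.2% of all genes tested. Since the filter already favoured these directions, the 4 calls add no evidence of a difference.

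Genes that work with these channels were read from 6 lists of 116 genes, of which 80 were tested and 31 differed (38.8%, 16 higher and 15 lower in knock-out cells, median log2 fold change 0.15), against 27.8% of all genes tested (14.1% higher and 13.7% lower, the shares to set beside each list's counts). With knock-out library 1 left out the count was 61, with any other library left out 11 to 15, and with nearly identical pairs summed 0 in edgeR. In the list of store partners 3 of 17 tested genes were higher and 3 lower. Jph2, a junctophilin that ties the store to the plasma membrane, averaged 6.38 ± 0.56 CPM in knock-out and 19.6 ± 4.67 CPM in wild-type cells (log2 fold change -1.62 ± 0.20, edgeR adjusted p = 0.00454). Asph, whose products include junctional store proteins, averaged 190 ± 42.3 CPM in knock-out and 97.8 ± 2.48 CPM in wild-type cells (log2 fold change 0.96 ± 0.16, edgeR adjusted p = 0.0102). The store chaperone Hspa5, the most abundant of the list by CPM, was not called (edgeR adjusted p = 0.214).

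Among calcineurin, NFAT and calmodulin kinase genes, 7 of 19 tested were higher and 2 lower. The catalytic subunits of calcineurin, the calcium-activated phosphatase of NFAT, differed in opposite directions: Ppp3ca averaged 88.5 ± 2.36 CPM in knock-out and 170 ± 6.81 CPM in wild-type cells (log2 fold change -0.94 ± 0.07, edgeR adjusted p = 0.000969), and Ppp3cb averaged 107 ± 3.90 CPM in knock-out and 64.9 ± 2.82 CPM in wild-type cells (log2 fold change 0.73 ± 0.07, edgeR adjusted p = 0.0023). Knock-out library 1 lay with libraries 2 and 3 in both genes, and the regulatory subunit Ppp3r1 was not called (edgeR adjusted p = 0.720). Of the exchangers and mitochondrial uniporter genes, 3 of 12 were higher and 1 lower. The uniporter pore Mcu was higher (log2 fold change 0.31 ± 0.07, edgeR adjusted p = 0.0251) and its inhibitory paralogue Mcub was lower (-0.83 ± 0.18, 0.0218).

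Of the regulators of voltage-gated calcium channels, 1 of 8 was higher and 2 lower. Cabp1, a calcium sensor of such channels, was higher (log2 fold change 3.01 ± 0.77, edgeR adjusted p = 0.0344) on 43, 24 and 13 reads in knock-out and 1, 2 and 7 in wild-type libraries. Stac2, an adaptor of L-type channels, was lower (-3.22 ± 0.76, 0.0275), and calmodulin gene Calm2 was not called. Of other chloride channel genes, 0 of 12 were higher and 3 lower, led by Lrrc8d, a subunit of volume-regulated anion channels, at 19.2 ± 1.43 CPM in knock-out and 42.8 ± 2.25 CPM in wild-type cells (log2 fold change -1.15 ± 0.09, edgeR adjusted p = 0.00131), while Clic4 was not called. Of other cation channel genes, 2 of 12 were higher and 4 lower. The osmotically sensitive channel Tmem63a was lower (-0.57 ± 0.07, 0.00433), the store counter-ion channel Tmem38a was higher (0.85 ± 0.17, 0.0182), and Pkd2, the polycystin channel, was not called.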

How the data were processed

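RNA selected for poly(A) was sequenced from 6 libraries, 3 per genotype. The deposited table holds whole-number counts made by the authors per gene and library (exon reads in total and those unique to the gene, reads across junctions, and intron reads), per the file headers. Its expression value is the same number as total exon reads in all entries. The deposited RPKM, per the file headers, are reads scaled by exon length and depth and were used for levels, never in a test. Coordinates are on GRCm38 (mm10), the build in the submitters' processing notes. Which aligner and counter were run, and whether strand was used, is not given in the sources used here; 17 of the 49 expressed genes have exons overlapping another gene of GENCODE M21. Unique exon reads made up 92.8% to 100% of each expressed gene's reads. Depth was 19919095 to 23669252 exon reads per library, so genes with few reads have wide counting error.

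The test on total exon reads was that of edgeR 4.0.16 under R 4.3.3 (filterByExpr with a minimum count of 10, TMM scaling, genotype only, quasi-likelihood F test), with Benjamini-Hochberg adjustment over 12660 genes at 0.05. CPM use TMM-scaled library sizes. The SE is the log2 fold change over the square root of F. Alternatives were DESeq2 1.42.0 (size factors or test), limma-voom 3.58.1, total counts, other filters, unique exon reads, nearly identical pairs summed, the last title number as a covariate, and leaving out each library. On simulated data the fit recovered 147 of 300 changes of 2-fold and 254 of 300 of 4-fold, with 18 false among 419 calls. Those libraries were independent draws with no nearly identical pairs, so error rates in the present libraries were not tested. Plots used matplotlib 3.10.9.

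The genes, lists and comparisons were chosen with earlier results of these data known. Values per library are given for every called gene, every expressed gene at least 2-fold apart between group means, and the highest of each family by RPKM. In partner lists, the called gene of smallest p in each direction is named with group means, reads or a fold change. Most lists also name an abundant gene, by its call alone. Other genes named with values (the remaining ORAI, IP3 receptor, TRPC, TRPM and Piezo genes, Scn3b, Clcn6, Ano1, Ano4, Ano5, Ano7, Ano10 and Ryr1) were chosen after their values were seen. A few genes that these rules name are not reported here, by name or in plots, although counts include them.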

Additional observations from a re-analysis of the deposited data

How the results depend on the processing

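With both nearly identical pairs summed, 0 channel genes were called, 0 higher and 0 lower, and 0 partner genes, against 0.13% of all genes tested. Leaving out 1 library gave 5 to 40 channel genes, 1 to 16 higher and 3 to 24 lower, and 11 to 61 partner genes. The share of all genes called in those fits ranged over 8.71% to 66.2%. Under the other scalings, filters, tests and counts, and with the last title number as a covariate, 16 to 23 channel genes were called. Of the 16, 14 (limma-voom) to 16 kept their call. Shares of all genes called in these fits are not given here, so these counts cannot be set against all genes. Expressed genes numbered 56 at 5 reads, 46 at 20 reads, 38 at 10 reads in all 6 libraries and 49 by unique exon reads.

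No called gene changed direction under any setting run. Among genes not called, the log2 fold change turned sign with limma-voom for Cacna2d3 (-0.031), Trpc6 (-1.92) and Clcn4 (-0.0025), with the last title number as a covariate for Trpc6 (-1.32), with total counts for Clcn4 (-0.052), Ano8 (-0.018) and Itpr2 (-0.033), with pairs summed for Clcn4 (-0.082), Ano10 (0.15) and Piezo1 (0.075), and with unique exon reads for Piezo1 (0.0028). Leaving out 1 library, values spanned -0.047 to 0.93 for Scn3b, -0.20 to 0.34 for Trpc1, -7.42 (fitted against 0 reads, no bound) to 0.012 for Trpc4, -4.71 to 1.12 for Trpc6, -0.22 to 0.13 for Trpm3, -0.043 to 0.22 for Trpv4, -0.087 to 0.29 for Clcn4, -0.43 to 0.15 for Ano10, -0.50 to 0.46 for Ano2, -0.15 to 0.071 for Piezo1, -0.024 to 0.20 for Orai2 and -0.18 to 0.17 for Itpr2. The cause was not tested. No paired analysis was possible because the genotypes share no library number. The last title number is shared across genotypes, but its meaning is not given. As a covariate it gave 23 called channel genes, 10 higher and 13 lower, adding 8 and losing Cacna1a. The share of all genes called in that fit is not given here, so the larger count is not a result about channel genes. The p-values of that fit have the limit given for Itpr1. Counting error is wide for genes with few reads, such as Trpc4 and Trpc6.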
